A study of Mus musculus with 12 samples.

Results

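The 9 genes described here encode cytokines of the interleukin-6 (IL-6) family (Il6, Il11 and Lif), receptor subunits of that family (Il6st and Osmr), receptor subunits for the type 2 cytokines IL-4 and IL-13 (Il4ra, Il13ra1 and Il13ra2) and the cytokine Tslp. They were chosen by symbol, with earlier results of these data known. Every probe set that the platform annotation pairs with exactly 1 gene symbol, that of 1 of these genes, was taken, which gave 21 of 34945 such probe sets and 9 of 18193 genes. Where a gene has several probe sets, the one with the highest average signal on the 12 arrays stands for it. Il6, Il11, Il13ra2 and Tslp have 1 probe set each, and the other genes have 2 to 5.

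RNA was measured on Affymetrix mouse arrays, 1 per sample, in dermal fibroblasts sorted as GFP-positive cells from the back skin of 7-week-old males. All animals, controls included, carried a PDGFRα-H2B-eGFP reporter allele. The 3 groups of 4 arrays came from wild-type skin (called normal), from InvEE skin (inflamed) and from tumour-associated InvEE skin (tumour-associated, labelled Pap for papilloma). InvEE mice are known to express an activated MEK1 kinase from the involucrin promoter, so the transgene acts in differentiating keratinocytes and not in the sorted fibroblasts. The labels do not say that arrays of a group came from separate animals, or whether animals were pooled, so p-values measure only how these samples differ among themselves, and some of that spread may be technical. Values are log2 probe-set values after quantile normalization. The number of arrays limits their precision.

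IL-6 family cytokines act through receptor complexes that share the signal-transducing chain gp130, the product of Il6st. IL-6 and IL-11 first bind their own alpha receptors, LIF signals through gp130 with the LIF receptor, and oncostatin M through gp130 with the product of Osmr. These complexes activate JAK kinases and chiefly STAT3, and the STAT3 target SOCS3 inhibits gp130 signalling. IL-4 and IL-13 signal in fibroblasts through a complex of the Il4ra and Il13ra1 products that activates STAT6, while the Il13ra2 product binds IL-13 with high affinity and is known mainly as a decoy receptor. TSLP is an epithelial cytokine that promotes type 2 immunity through a receptor of CRLF2 and IL-7 receptor alpha.

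The sequences before the start sites of the 2 receptor genes that rose in tumour-associated skin, and of Lif, which fell there, are shown because Il13ra2 and Lif share a motif while their changes ran opposite ways. Each is the 250 bases before the RefSeq start on build GRCm38.p6, read 5′ to 3′ on the gene's strand, at chrX:147429193-147429442 (minus strand) for Il13ra2, chr7:125552021-125552270 (plus strand) for Il4ra and chr11:4257318-4257567 (plus strand) for Lif. Capitals mark matches to the AP-1 motif TGANTCA.
Il13ra2: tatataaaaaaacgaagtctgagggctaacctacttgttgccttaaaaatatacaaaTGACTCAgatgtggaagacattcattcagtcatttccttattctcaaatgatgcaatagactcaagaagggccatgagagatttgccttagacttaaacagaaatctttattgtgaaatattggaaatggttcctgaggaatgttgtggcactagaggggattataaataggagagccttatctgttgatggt
Il4ra: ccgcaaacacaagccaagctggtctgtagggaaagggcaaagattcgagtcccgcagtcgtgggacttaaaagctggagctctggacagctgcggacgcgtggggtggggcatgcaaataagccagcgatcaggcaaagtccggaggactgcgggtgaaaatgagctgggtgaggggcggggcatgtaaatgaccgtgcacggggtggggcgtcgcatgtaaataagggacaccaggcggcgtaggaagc
Lif: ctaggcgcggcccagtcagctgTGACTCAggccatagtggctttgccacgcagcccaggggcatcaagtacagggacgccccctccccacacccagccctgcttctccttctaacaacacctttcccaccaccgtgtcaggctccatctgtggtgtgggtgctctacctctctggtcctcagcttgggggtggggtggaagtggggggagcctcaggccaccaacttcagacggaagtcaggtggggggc
Windows were found for 8 of the 9 genes, 9 in all since Il11 has 2 starts. The AP-1 motif, searched on both strands, was present 193 to 187 bases before the start of Il13ra2 and 228 to 222 bases before that of Lif. It was also present 249 to 243 bases before the start of Il6 and 98 to 92 bases before 1 start of Il11, so 4 of 9 windows held it, against 6.75% of 32851 windows of that length. The STAT motif TTCNNNGAA and a STAT6 motif with 4 bases in place of 3 between TTC and GAA, searched on both strands, were in none of the 9 windows, against 7.02% and 5.85% of all windows. TATAAA, searched on the gene's strand, was present in 1 of the 9 windows, that of Il13ra2, at 248 to 243 and 31 to 26 bases before the start, against 7.59% of all windows. These are matches of letters in a short window, and they say nothing about binding.

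The sorted cells had high levels of fibroblast markers. The mean over 10 fibroblast markers lay between 13.03 and 13.14 in normal, between 12.92 and 13.03 in inflamed and between 13.12 and 13.25 in tumour-associated arrays, and none of the 10 lay among the lowest 40% of gene means, which end at a log2 value of 6.73. Of the 9 genes, Il6, Il11 and Tslp lay below that limit and the other 6 above it. Lif lay only just above, at a mean of 6.77 over the 12 arrays. Ptprc, the pan-leukocyte marker CD45, lay below the limit with means of 5.56 ± 0.50 (SD, n = 4), 5.09 ± 0.10 and 5.69 ± 0.61 in normal, inflamed and tumour-associated arrays. So did the T cell marker Cd3e, the endothelial marker Pecam1 and the mast cell marker Kit. The keratinocyte markers Krt5 and Krt14 lay above it, with means over the 12 arrays of 8.78 and 8.28. Some markers of each of these cell types lay above the limit. Below it lay 9 of 13 macrophage and myeloid and 7 of 11 T cell and innate lymphoid markers. The same held for 6 of 9 endothelial, 6 of 9 mast cell and 5 of 17 keratinocyte markers. Control measurements differed between arrays and between groups. The mean of 24 poly-A spike-in probe sets lay between 9.25 and 12.27 in normal, between 7.84 and 8.64 in inflamed and between 9.80 and 12.53 in tumour-associated arrays, and was highest in normal array 4 and tumour-associated array 4. The difference between the 3′ and 5′ control probe sets of Gapdh, a sign of RNA integrity, lay between 1.59 and 2.28, between 1.62 and 3.37 and between 2.29 and 3.76, and was highest in tumour-associated array 4. Each tumour-associated array had a higher Gapdh difference than any normal array. Each inflamed array had a lower spike level than any array of the other groups. These measures thus partly coincide with group, and fits with either of them as a covariate cannot fully separate the measure from the group.

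In fibroblasts of tumour-associated skin the receptor genes Il13ra2 and Il4ra rose against normal skin, 2.18-fold and 1.76-fold, and both rose against inflamed skin, 2.84-fold and 1.89-fold. The shared receptor chain gene Il6st fell 2.73-fold and the cytokine gene Lif 1.70-fold against normal skin. A gene was called at a Benjamini-Hochberg adjusted p under 0.05 over all 18193 genes by limma. In this way 4 of the 9 genes were called between tumour-associated and normal skin, 2 in each direction, where 9.65% of all genes were called, 4.85% higher and 4.80% lower. Between tumour-associated and inflamed skin 2 of 9 were called, both higher, where 6.71% of all genes were called, 3.67% higher and 3.04% lower. Between inflamed and normal skin limma called 0 of 9, where 0.533% of all genes were called, and 1 of the 9 had an unadjusted p under 0.05 (15.6% of all genes). At that unadjusted p there were 4 of 9 between tumour-associated and normal skin (22.4% of all genes) and 4 of 9 between tumour-associated and inflamed skin (26.5%). The 4 calls between tumour-associated and normal skin dropped to 1 without normal array 1 or 2 or tumour-associated array 1 and to 2 without normal array 3 or tumour-associated array 2. Over all genes the 1756 calls in this comparison became 1273, 1259, 1345, 1475 and 1479 without these arrays in that order. The 2 calls among the 9 genes against inflamed skin dropped to 1 without inflamed array 1 or 2. The 97 genes called between inflamed and normal skin became 0 without normal array 1, inflamed array 1 or inflamed array 2 (2358, 2222 and 1967 at an unadjusted p under 0.05), 13, 44, 49 and 55 without normal array 2, inflamed array 3, tumour-associated array 2 and tumour-associated array 3, and 249 without tumour-associated array 4. The 1221 between tumour-associated and inflamed skin became 578, 621 and 716 without inflamed arrays 1, 2 and 4. The groups did not overlap in 4 of 9 genes between tumour-associated and normal skin (13.8% of all genes), in 3 of 9 between tumour-associated and inflamed skin (21.1%) and in 1 of 9 between inflamed and normal skin (15.3%). The median difference of the 9 genes was -0.22 between inflamed and normal skin, beside -0.09 for all genes, -0.03 beside 0.04 between tumour-associated and normal skin, and 0.14 beside 0.12 between tumour-associated and inflamed skin. Both comparisons with normal skin share the normal arrays, and both with tumour-associated skin share those arrays.

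**Figure D1:**
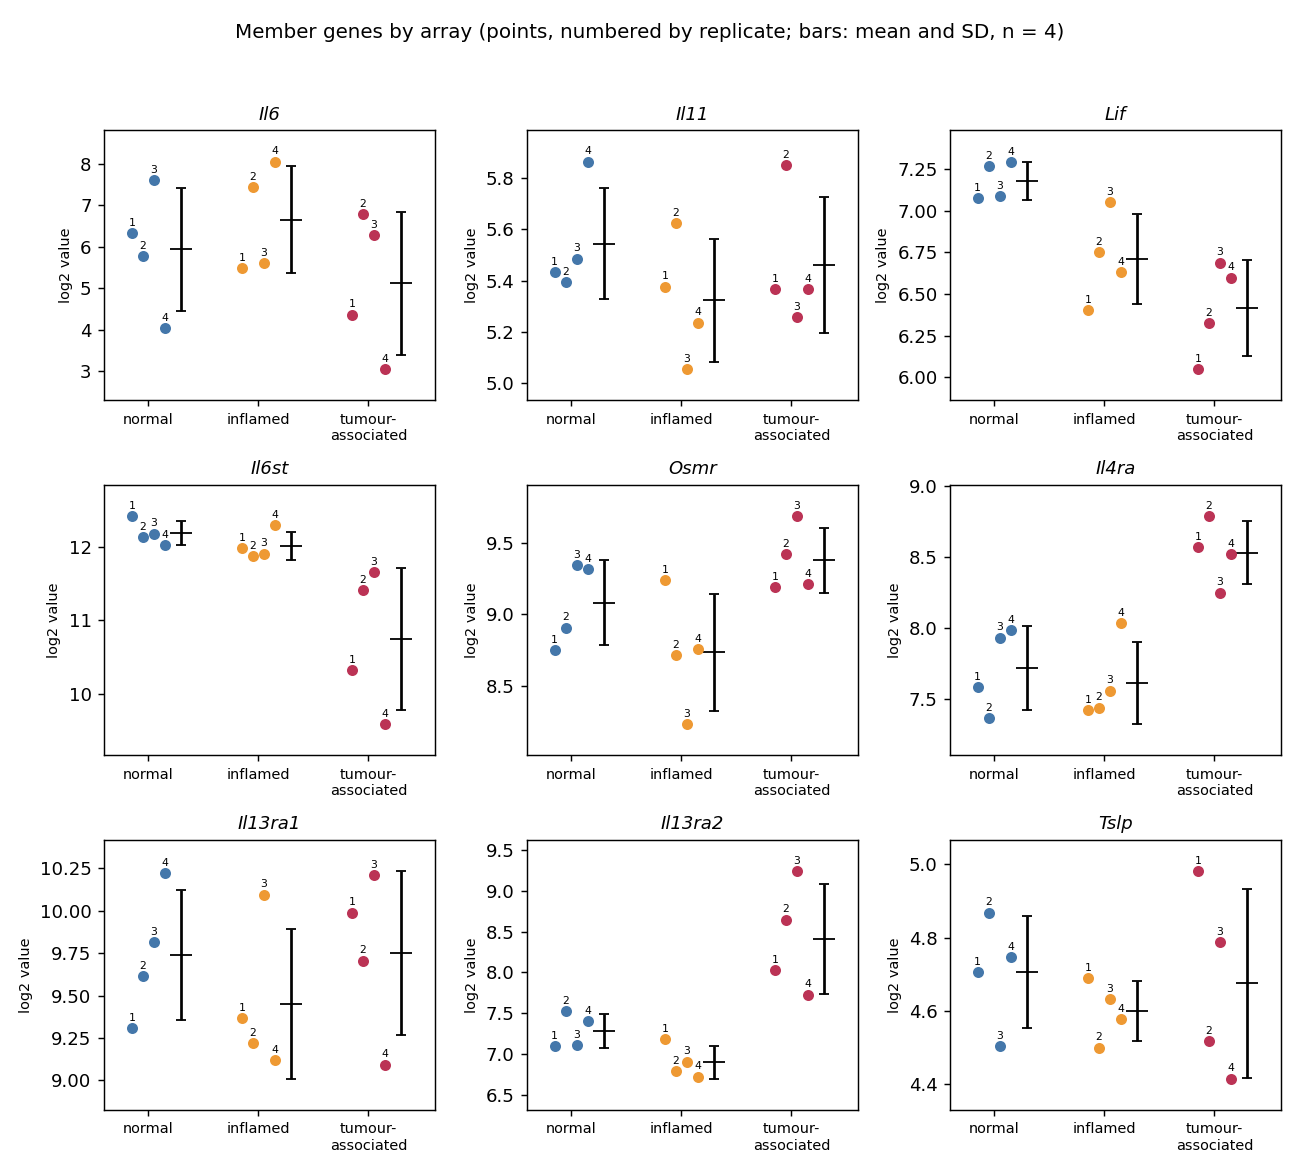
Log2 values of the 9 genes on each array, 1 panel a gene, with points numbered by replicate and bars for mean and SD (n = 4). In the panels of Il4ra and Il13ra2 all tumour-associated points lie above the points of both other groups, in that of Il6st they lie below them, and Il6 spreads from 3.05 to 8.05. The vertical axes differ between panels and do not start at 0.

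**Figure D2:**
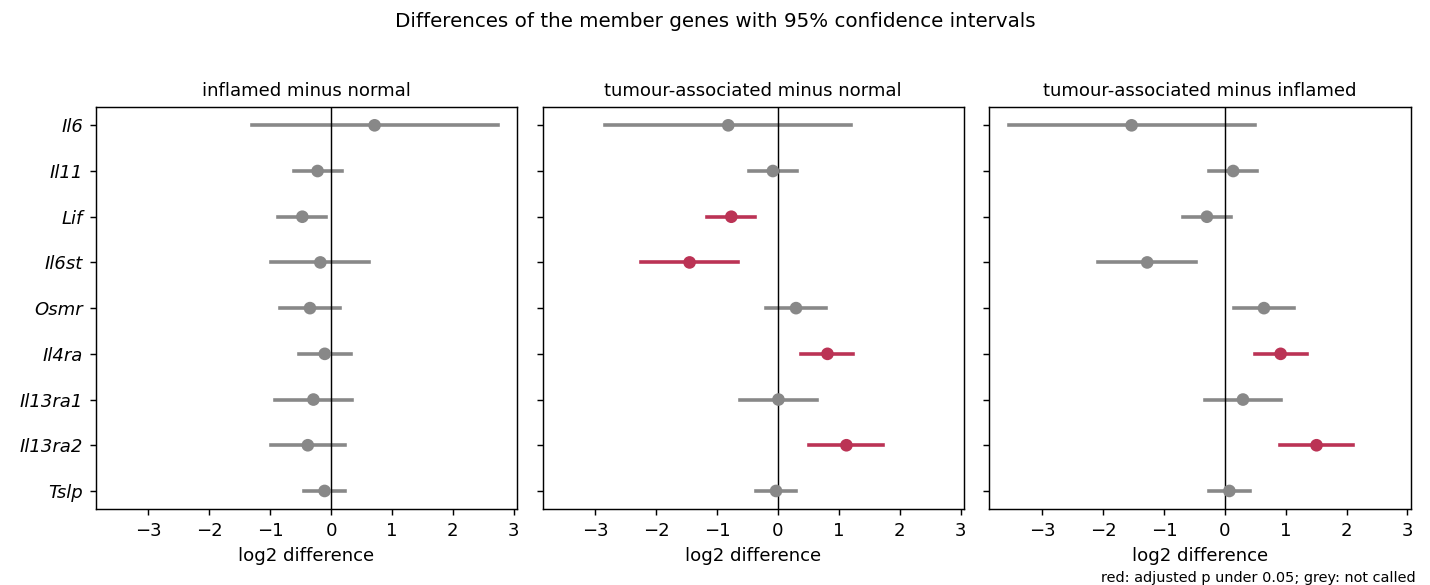
Log2 differences of the 9 genes in the 3 comparisons with 95% confidence intervals from limma (horizontal axis), 1 row a gene. Red marks an adjusted p under 0.05, which Lif, Il6st, Il4ra and Il13ra2 reached between tumour-associated and normal skin and Il4ra and Il13ra2 between tumour-associated and inflamed skin.

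Among the type 2 receptors, Il13ra2, the IL-13 decoy receptor gene, had log2 values of 7.10, 7.52, 7.11 and 7.41 on normal arrays 1 to 4, 7.18, 6.79, 6.91 and 6.73 on inflamed arrays 1 to 4, and 8.03, 8.65, 9.23 and 7.73 on tumour-associated arrays 1 to 4. All 4 tumour-associated arrays lay above the 8 others, while normal and inflamed arrays overlapped. The gene rose by 1.12 ± 0.28 (log2, SE) against normal skin (adjusted p = 0.0246) and by 1.51 ± 0.28 against inflamed skin (adjusted p = 0.0079). Between inflamed and normal skin the difference was -0.38 (95% interval -0.99 to 0.23, adjusted p = 0.515). The call against normal skin was lost without normal array 1 (1.06), normal array 3 (1.07) or tumour-associated array 2 (1.05), and when only the 8 arrays of both groups were fitted (adjusted p = 0.0756, range over the alternatives 0.00642 to 0.0756). The difference against inflamed skin stood at 1.98 with the spike level as a covariate and was not called there (adjusted p = 0.0553, range over the alternatives 0.000798 to 0.0553).

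Il4ra, the receptor chain shared by IL-4 and IL-13, had log2 values of 7.58, 7.37, 7.93 and 7.99 on the normal arrays, 7.42, 7.44, 7.56 and 8.04 on the inflamed arrays, and 8.57, 8.79, 8.25 and 8.52 on the tumour-associated arrays. Again the tumour-associated arrays lay above all others and normal and inflamed arrays overlapped. It rose by 0.81 ± 0.20 (SE) against normal skin (adjusted p = 0.0218) and by 0.92 ± 0.20 against inflamed skin (adjusted p = 0.017). Inflamed and normal skin differed by -0.10 (95% interval -0.53 to 0.32, adjusted p = 0.808). The other 2 probe sets of Il4ra gave 0.65 and 0.63 against normal skin, neither called, and 1.05 (called, adjusted p = 0.036) and 0.84 (not called) against inflamed skin. The call against normal skin was lost without normal array 1 (0.77) or 2 (0.70) or tumour-associated array 1 (0.80) or 2 (0.73), and with the Gapdh measure as a covariate (0.80, adjusted p = 0.0959, range over the alternatives 0.0181 to 0.0959). That against inflamed skin was lost without inflamed array 1 (0.85) or 2 (0.86) and with the spike covariate (0.82, adjusted p = 0.248, range over the alternatives 0.00837 to 0.248).

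Il13ra1, the signalling chain of the IL-13 receptor, was not called in any comparison. Its log2 values were 9.31, 9.62, 9.82 and 10.22 on the normal arrays, 9.37, 9.22, 10.10 and 9.12 on the inflamed arrays and 9.99, 9.71, 10.21 and 9.09 on the tumour-associated arrays, so that all 3 groups overlapped. Tumour-associated and normal skin differed by 0.01, with a 95% interval from -0.62 to 0.64. Tumour-associated and inflamed skin differed by 0.30 (-0.33 to 0.93), and inflamed and normal skin by -0.29 (-0.92 to 0.34). The other 4 probe sets gave -0.22 to 0.22 against normal skin, none of them called. On 2 of these, tumour-associated array 4 stood far below the rest of its group, at 4.61 (others 8.38 to 9.03) and 4.76 (others 7.70 to 7.99). This is the array with the highest spike level and Gapdh measure, whose part in these values was not tested.

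Among the IL-6 family receptors, Il6st, the gene of gp130, had log2 values of 12.42, 12.14, 12.18 and 12.03 on the normal arrays, 11.99, 11.88, 11.91 and 12.30 on the inflamed arrays, and 10.32, 11.41, 11.66 and 9.59 on the tumour-associated arrays. All tumour-associated arrays lay below the others, and their SD of 0.97 was larger than that of normal (0.16) and inflamed arrays (0.19). Il6st fell by 1.45 ± 0.37 (SE) against normal skin (adjusted p = 0.0277). Against inflamed skin it stood at -1.27 (95% interval -2.08 to -0.47, adjusted p = 0.0607, range over the alternatives 0.0207 to 0.892), and with the spike covariate at -0.18. In these bulk samples, fewer cells with a transcript and less RNA per cell cannot be told apart.

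The fall of Il6st depended on the probe set and on single arrays. The other 3 probe sets gave -1.19, -0.30 and -0.88 against normal skin, and none was called. On tumour-associated array 4 the 4 probe sets stood at 9.59, 9.38, 11.05 and 6.21, the lowest value of their group on 3 of them and the highest on the third. The Gapdh difference was highest in that array (3.76), and with it as a covariate, a fit added after seeing the data, Il6st gave -0.98 against normal skin and was not called (adjusted p = 0.212, range over the alternatives 0.00886 to 0.212). The call was also lost without normal array 1 (-1.38), 2 (-1.47) or 3 (-1.45) or tumour-associated array 1 (-1.31), with the mean over its probe sets (-0.96), and when only the 8 arrays of both groups were fitted. Without tumour-associated array 2 (-1.50) or 3 (-1.58) the difference from inflamed skin was called.

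**Figure D3:**
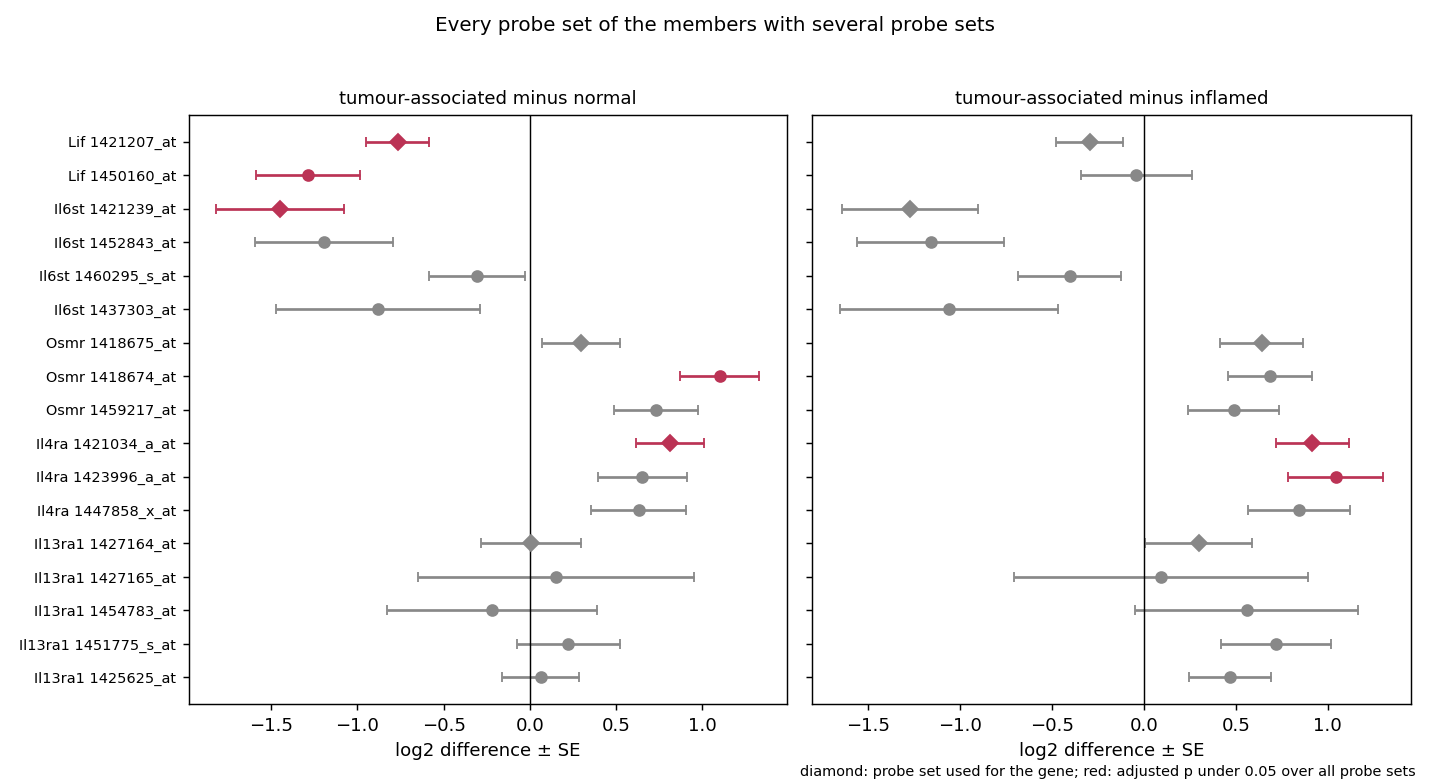
Log2 difference ± SE of every probe set of the 5 genes with several probe sets, tumour-associated minus normal (left) and minus inflamed (right). Diamonds mark the probe set used for the gene and red an adjusted p under 0.05 over all probe sets, so that Il4ra and Osmr lie right of 0, Il6st left of 0 and Il13ra1 on both sides of 0 in the left panel.

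Osmr, the oncostatin M receptor subunit gene, had log2 values of 8.75, 8.91, 9.35 and 9.32 on the normal arrays, 9.24, 8.71, 8.23 and 8.75 on the inflamed arrays and 9.19, 9.42, 9.69 and 9.21 on the tumour-associated arrays. Tumour-associated arrays overlapped with both other groups. The difference was 0.30 against normal skin (95% interval -0.19 to 0.78, adjusted p = 0.491) and 0.64 against inflamed skin (0.16 to 1.13, adjusted p = 0.103). Between inflamed and normal skin it was -0.35 (-0.83 to 0.14, adjusted p = 0.463). A second probe set gave 1.10 against normal skin and was called (adjusted p = 0.011), with values of 7.35 to 8.40 on normal and 8.72 to 9.49 on tumour-associated arrays, which did not overlap. The third gave 0.73 and was not called. With arrays shifted by ribosomal protein genes the difference from inflamed skin was 1.03 and called (adjusted p = 0.0204, range over the alternatives 0.0204 to 0.402). The mean over the 3 probe sets was 0.71 higher in tumour-associated than in normal skin and called (adjusted p = 0.0225, range over the alternatives 0.0225 to 0.741).

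Among the cytokines, Lif, the leukaemia inhibitory factor gene, had log2 values of 7.08, 7.27, 7.09 and 7.29 on the normal arrays, 6.40, 6.75, 7.05 and 6.63 on the inflamed arrays and 6.05, 6.32, 6.69 and 6.60 on the tumour-associated arrays. Every normal array lay above every array of both other groups, which overlapped with each other. Lif fell by 0.77 ± 0.18 (SE) in tumour-associated against normal skin (adjusted p = 0.0192). Inflamed skin stood at -0.47 against normal skin (95% interval -0.86 to -0.08, adjusted p = 0.242), and tumour-associated at -0.29 against inflamed skin (-0.69 to 0.10, adjusted p = 0.306). The second probe set gave -1.29 in tumour-associated (called, adjusted p = 0.021) and -1.25 in inflamed skin (not called). The mean of both was 0.86 lower in inflamed than in normal skin and called (adjusted p = 0.0462, range over the alternatives 0.0462 to 0.522). The call of the fall in tumour-associated skin was lost without normal array 2 (-0.74) or tumour-associated array 1 (-0.64). It was also lost when arrays were shifted by their ribosomal protein genes (-0.56, adjusted p = 0.25, range over the alternatives 0.00363 to 0.25).

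Il6, the founding cytokine of the family, had log2 values of 6.32, 5.77, 7.60 and 4.04 on the normal arrays, 5.49, 7.44, 5.61 and 8.05 on the inflamed arrays and 4.36, 6.78, 6.28 and 3.05 on the tumour-associated arrays. The groups overlapped throughout, with SDs of 1.48, 1.29 and 1.73. None of its differences was called. They were 0.71 between inflamed and normal skin (95% interval -1.31 to 2.74), -0.82 between tumour-associated and normal skin (-2.84 to 1.20) and -1.53 between tumour-associated and inflamed skin (-3.55 to 0.49), so that differences of several fold in either direction lay within the intervals of the comparisons with normal skin. In each group the array with the highest spike level had the lowest Il6 value: normal array 4 (spike level 12.27, Il6 4.04), inflamed array 1 (8.64, 5.49) and tumour-associated array 4 (12.53, 3.05). When the spike level entered the fit as a covariate, inflamed minus normal skin was -2.30, of the opposite sign and not called.

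**Figure D4:**
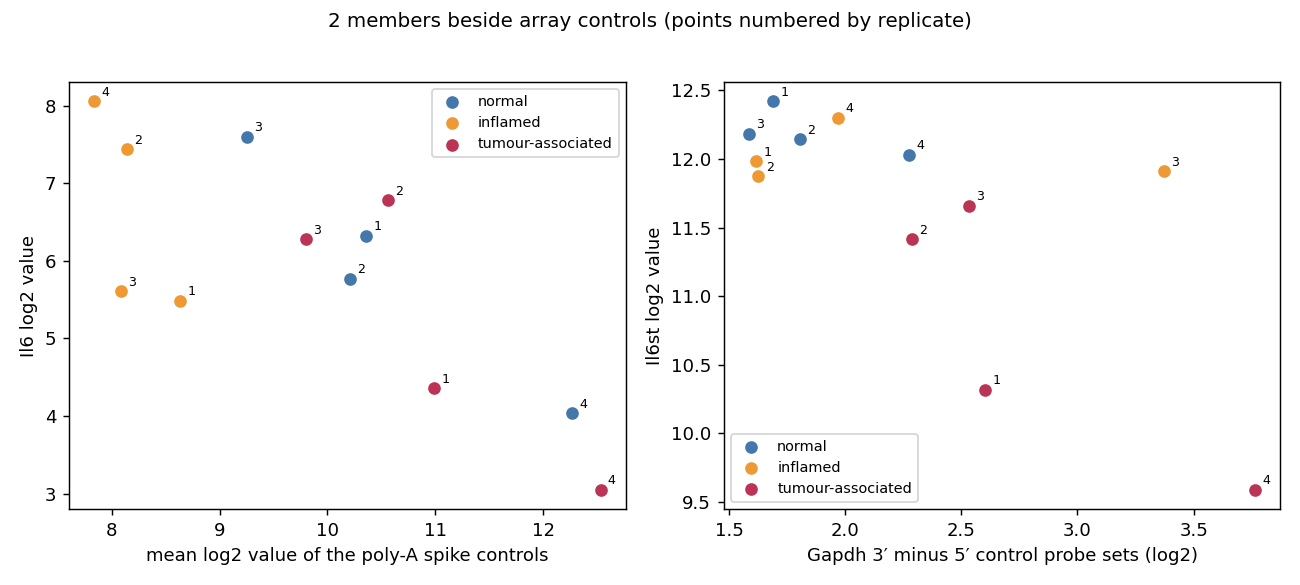
Log2 values of Il6 against the mean poly-A spike level of the array (left), and of Il6st against the Gapdh 3′ minus 5′ difference (right), 12 arrays coloured by group and numbered by replicate. Normal array 4 and tumour-associated array 4 have the highest spike levels and the lowest Il6 values, and tumour-associated array 4 the highest Gapdh difference and the lowest Il6st value.

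Il11 and Tslp stayed within narrow ranges at low signal. Il11, a gp130 cytokine gene known from fibroblasts and fibrosis, lay between 5.06 and 5.86 over all arrays, with means of 5.54 ± 0.22 (SD, n = 4), 5.32 ± 0.24 and 5.46 ± 0.26 in normal, inflamed and tumour-associated skin. Tslp, the epithelial type 2 cytokine gene, lay between 4.41 and 4.98, with means of 4.71 ± 0.15, 4.60 ± 0.08 and 4.67 ± 0.26. The 3 groups overlapped for both genes. For inflamed minus normal skin the 95% interval of Il11 was -0.62 to 0.17 and that of Tslp -0.44 to 0.23, and for tumour-associated minus normal skin they were -0.48 to 0.31 and -0.36 to 0.30. Since how background was treated is not given in the sources used here, these intervals bound only the deposited signal near its low end.

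Of the other IL-6 family ligands and receptors, Il6ra fell 5.58-fold in tumour-associated against normal skin. Il6ra encodes the IL-6 receptor alpha chain, which binds IL-6 before gp130 joins. Its log2 values were 11.07, 10.84, 10.30 and 10.68 on the normal arrays, 10.41, 9.95, 9.04 and 9.86 on the inflamed arrays and 8.25, 9.28, 7.89 and 7.55 on the tumour-associated arrays. Tumour-associated arrays lay below all normal arrays, while array 2 of that group overlapped the inflamed range. Il6ra fell by 2.48 ± 0.37 (SE) against normal skin (adjusted p = 0.00129), a call kept in all 23 alternatives, and its second probe set by 1.31 (called). Against inflamed skin it fell by 1.57 ± 0.37 (adjusted p = 0.0254, range over the alternatives 0.00598 to 0.297), a call lost without inflamed array 1 (-1.37), 2 (-1.53) or 4 (-1.56) or tumour-associated array 1 (-1.57), 3 (-1.45) or 4 (-1.34), with 2 groups only and with the spike (-1.44) or Gapdh covariate (-1.14). The second probe set of Il6ra gave -0.56 against inflamed skin and was not called. On the probe set used, inflamed skin stood at -0.91 against normal skin (-1.70 to -0.11, adjusted p = 0.267).

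Of 10 measured genes in this list (14 listed), 2 were lower and 0 higher in tumour-associated against normal skin, and 1 was lower against inflamed skin. Between inflamed and normal skin limma called 0, and 3 had an unadjusted p under 0.05. Over all genes 9.65%, 6.71% and 0.533% were called in that order, and 15.6% had such a p between inflamed and normal skin. The second gene lower against normal skin was Il31ra, the receptor chain for the itch cytokine IL-31, which fell by 0.76 ± 0.20 (SE). That call was lost without normal array 1, 2 or 4 or tumour-associated array 1, 2 or 3 (-0.75 to -0.66 over these). It was also lost when arrays were shifted by ribosomal protein genes (-0.56) and with 2 groups only. The other probe set of Il31ra gave -0.72 against normal skin and was not called (adjusted p = 0.0744 over all probe sets). Inflamed skin stood at -0.74 against normal skin for Il31ra (adjusted p = 0.118), and tumour-associated at -0.01 against inflamed skin. Lifr, the LIF receptor gene, was not called: 1.93 ± 0.63 in inflamed (adjusted p = 0.184) and 1.40 ± 0.63 in tumour-associated skin (adjusted p = 0.212), both against normal skin. Its other 2 probe sets gave -0.06 and 0.13 for inflamed skin. Osm, the ligand of the Osmr product, stood at 0.22 ± 0.20 in tumour-associated against normal and 0.56 ± 0.20 against inflamed skin (adjusted p = 0.583 and 0.114). The median of the list was 0.27 in tumour-associated against normal skin, beside 0.04 for all genes.

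Among 29 measured genes of JAK-STAT3 signalling and its known targets, 6 rose and 4 fell in tumour-associated against normal skin, and 3 rose and 3 fell against inflamed skin. Limma called 0 between inflamed and normal skin, where 6 had an unadjusted p under 0.05 (15.6% of all genes). The shares of all genes called were 9.65%, 6.71% and 0.533% in these comparisons. In that order of comparisons the medians of the list were -0.09, -0.17 and 0.17, beside 0.04, 0.12 and -0.09 for all genes. Against normal skin Stat3 itself stood at 0.30 (95% interval -0.14 to 0.74, adjusted p = 0.433) in tumour-associated and at 0.52 (0.09 to 0.96, adjusted p = 0.244) in inflamed skin, neither of them called. Of its other 3 probe sets, 1 stood at -0.72 against normal skin (not called) and was called lower against inflamed skin (-1.50, adjusted p = 0.0456 over all probe sets), and the other 2 were not called. Jak1, a kinase bound to gp130, stood at 0.10 ± 0.22 (SE) in tumour-associated against normal skin and was not called.

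Saa3, an acute-phase serum amyloid gene, had log2 values of 7.19, 6.32, 6.88 and 6.76 on the normal arrays, 6.58, 6.43, 6.77 and 6.61 on the inflamed arrays and 8.42, 10.32, 9.86 and 10.60 on the tumour-associated arrays. It rose by 3.01 ± 0.38 (SE) against normal skin (adjusted p = 0.000431) and by 3.20 ± 0.38 against inflamed skin (adjusted p = 0.00049), and every tumour-associated array lay above the others. Timp1, a metalloproteinase inhibitor gene, rose by 3.02 ± 0.30 and 2.50 ± 0.30, from means of 8.63 in normal and 9.14 in inflamed to 11.65 in tumour-associated skin. Hp, the haptoglobin gene, rose by 0.99 ± 0.23 and 1.35 ± 0.23. Its call against normal skin was lost without normal array 2 (0.94) or tumour-associated array 1 (0.88), with 2 groups only (adjusted p = 0.0607) and with the Gapdh covariate (1.01). Serpina3n, a serine protease inhibitor of the acute phase, fell by 1.93 ± 0.26 and 1.45 ± 0.26, from 12.58 in normal and 12.09 in inflamed to 10.65 in tumour-associated skin. With the spike covariate the calls of Saa3 (2.95), Hp (1.54) and Serpina3n (-1.38) against inflamed skin were lost, at adjusted p of 0.057, 0.0757 and 0.151.

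The other genes of this list called against normal skin were Fosl2, Ptpn11 and Tnfaip6, which rose, and Cebpd, Junb and Pim3, which fell. Fosl2, an AP-1 subunit, rose by 1.53 ± 0.33 (SE) against normal skin, but not on its other probe set (0.14). The mean of both, 0.83, was not called (adjusted p = 0.0689). On the probe set used, Fosl2 stood at 1.23 in inflamed against normal skin and was not called (adjusted p = 0.115). Cebpd, a C/EBP factor of the acute phase, fell by 1.24 ± 0.27, and by 1.20 on its other probe set, a call lost with the ribosomal shift (-1.04, adjusted p = 0.0588). Junb, another AP-1 subunit, fell by 1.10 ± 0.28, a call lost in 6 of 12 fits without 1 array: without normal array 1 (-1.06), 2 (-1.13) or 3 (-1.04), or tumour-associated array 1 (-1.05), 2 (-1.02) or 3 (-1.11). It was also lost with the ribosomal shift (-0.90) and the Gapdh covariate (-0.74). Ptpn11, the gene of the phosphatase SHP2 that binds gp130, rose by 0.65 ± 0.17, and its other 2 probe sets gave 0.81 (called) and 0.19 (not called). The call on the probe set used was lost without normal array 1 (0.67) or 2 (0.65) or tumour-associated array 1 (0.67), 2 (0.59) or 3 (0.65), with 2 groups only (adjusted p = 0.0997) and with the Gapdh covariate (0.74). Tnfaip6, a hyaluronan-binding protein gene, rose by 1.12 ± 0.30. This call was lost without normal array 1 (0.92), 2 (1.0) or 4 (1.14) or any 1 tumour-associated array (1.06 to 1.16). It was also lost with 2 groups only and with the Gapdh covariate (1.35). Tnfaip6 stood at 1.26 in inflamed against normal skin (adjusted p = 0.0926, not called), and at -0.14 in tumour-associated against inflamed skin.

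Pim3, a kinase gene of this list, fell by 1.67 ± 0.42 (SE) against normal and by 2.13 ± 0.42 against inflamed skin on the probe set used. Its other 2 probe sets gave 0.25 and -0.64 against normal skin and 0.49 and -0.66 against inflamed skin, and none of these was called. The call against normal skin was lost without normal array 1 (-1.54) or 2 (-1.73) or tumour-associated array 1 (-1.51), 3 (-1.65) or 4 (-1.38), with 2 groups only, with the mean over probe sets (-0.69) and with the Gapdh covariate, which gave -1.0. That against inflamed skin was lost with the spike covariate (-1.68, adjusted p = 0.28, range over the alternatives 0.000678 to 0.28). Both calls were also lost when probe sets without an x, s or a suffix were preferred. Pim3 then stood at -0.64 against normal (adjusted p = 0.34) and at -0.66 against inflamed skin (adjusted p = 0.255).

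Socs3, the feedback inhibitor of gp130, was highest in inflamed skin. Its log2 values were 10.08, 9.58, 10.07 and 8.31 on the normal arrays, 11.12, 10.98, 11.08 and 11.62 on the inflamed arrays and 8.13, 8.82, 9.05 and 10.49 on the tumour-associated arrays. The inflamed arrays lay above all others, and the other groups overlapped. Socs3 fell by 2.08 ± 0.48 (SE) in tumour-associated against inflamed skin (adjusted p = 0.0243, range over the alternatives 0.000332 to 0.312), a call lost without inflamed array 1 (-2.11), 2 (-2.15) or 4 (-1.94) or tumour-associated array 1 (-1.75) or 2 (-1.98). The other 2 probe sets of Socs3 gave -1.38 and -1.44 in that comparison and were not called. When probe sets without an x, s or a suffix were preferred, the call was lost too (-1.38, adjusted p = 0.0608). Inflamed skin stood at 1.69 ± 0.48 against normal skin (adjusted p = 0.137) and tumour-associated skin at -0.39 (-1.44 to 0.65). The inflamed arrays had the lowest spike levels too (7.84 to 8.64), and with these as a covariate the difference between tumour-associated and inflamed skin was -1.85, not called.

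**Figure D5:**
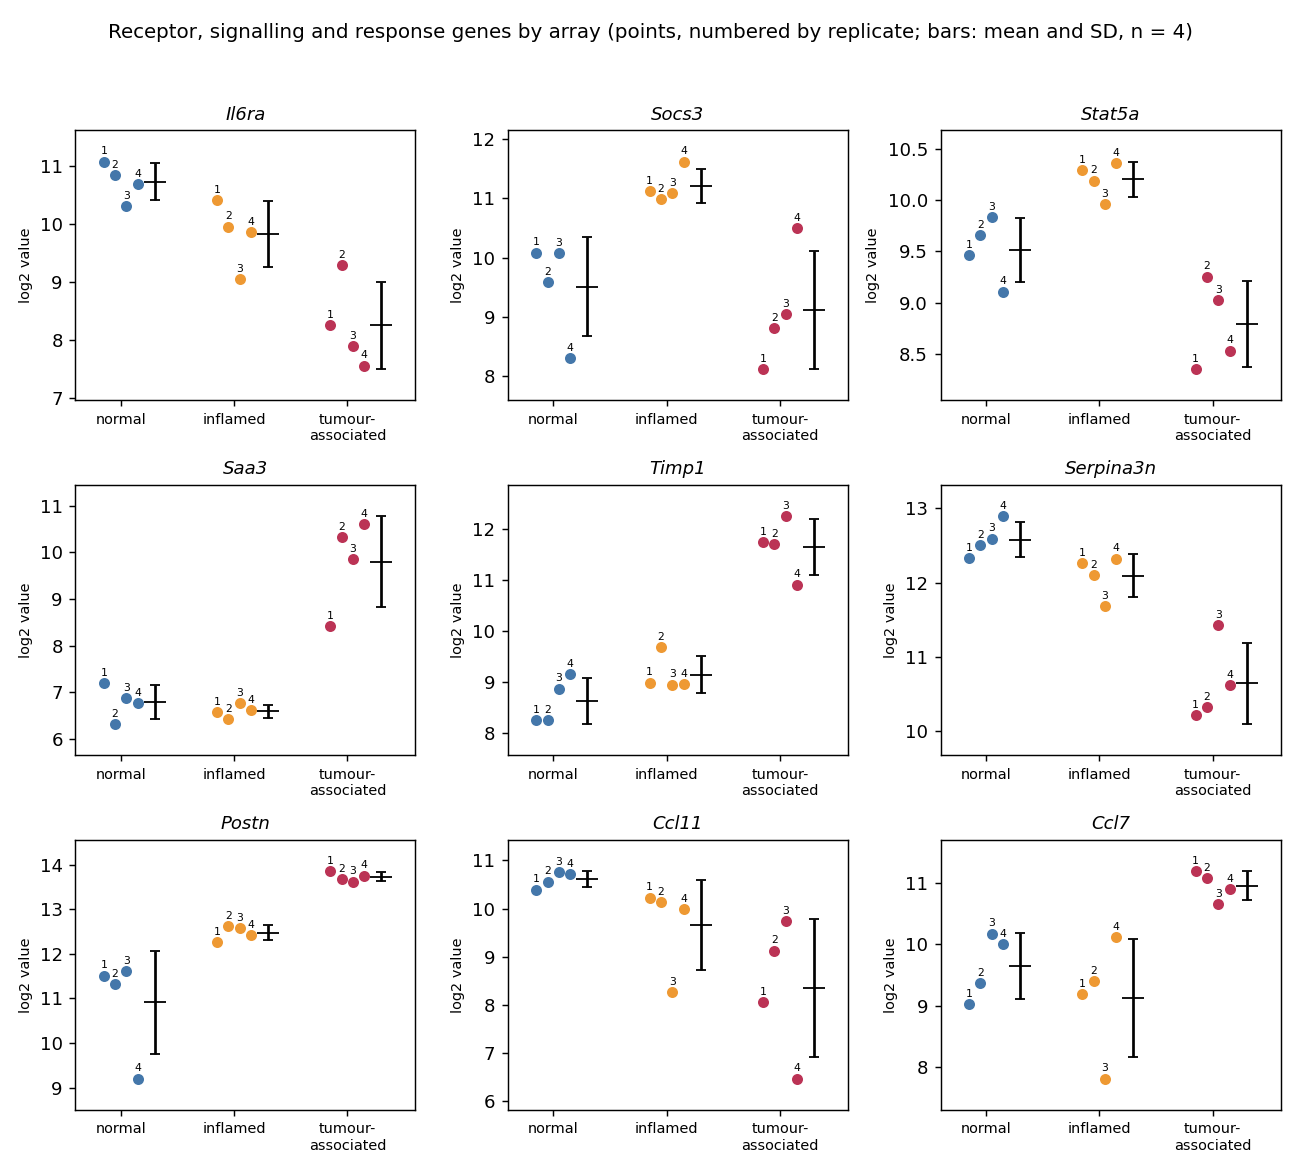
Log2 values of 9 receptor, signalling and response genes on each array, 1 panel a gene, points numbered by replicate, bars for mean and SD (n = 4). Il6ra and Serpina3n are lowest, and Saa3, Timp1 and Postn highest, in the tumour-associated group, while Socs3 is highest in inflamed arrays. The vertical axes differ between panels and do not start at 0.

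Of 17 measured ligands, receptors and signalling genes of type 2 immunity (19 listed, 10 of the measured below 6.73), limma called 0 in tumour-associated against normal skin, 1 lower against inflamed skin and 0 between inflamed and normal skin. At an unadjusted p under 0.05 there were 3, 3 and 1. Of all genes, 9.65%, 6.71% and 0.533% were called, and 22.4%, 26.5% and 15.6% had an unadjusted p under 0.05. The medians of the list were -0.04, 0.06 and -0.15 in that order. The gene called was Stat5a, a transcription factor downstream of several cytokine receptors, with log2 values of 9.46, 9.66, 9.84 and 9.11 on the normal arrays, 10.30, 10.19, 9.97 and 10.36 on the inflamed arrays and 8.35, 9.26, 9.03 and 8.53 on the tumour-associated arrays. Inflamed arrays lay above all others, while normal and tumour-associated arrays overlapped. Stat5a fell by 1.41 ± 0.22 (SE) against inflamed skin (adjusted p = 0.00307, range over the alternatives 0.00216 to 0.212). In the fit with the spike covariate it was -0.79 and not called. The other probe set of Stat5a gave -1.24 against inflamed skin and was not called (adjusted p = 0.0533 over all probe sets).

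Stat6, the transcription factor activated by the IL-4 receptor, had log2 values of 10.49, 10.58, 10.53 and 10.50 on the normal arrays, 10.21, 10.11, 9.88 and 10.35 on the inflamed arrays and 10.19, 9.79, 9.82 and 8.27 on the tumour-associated arrays. Every normal array lay above the others, and tumour-associated array 4 was the lowest. It stood at -1.01 ± 0.33 (SE) against normal skin and was not called (adjusted p = 0.0766), while its second probe set fell by 0.76 and was called (adjusted p = 0.0195 over all probe sets). The ligand genes Il4 and Il13 had means of 5.67 and 5.83 in normal, 5.46 and 5.57 in inflamed and 5.68 and 5.85 in tumour-associated skin, all below 6.73, and were not called. Of the TSLP receptor genes, Crlf2 differed by -0.36 (95% interval -0.87 to 0.16) between tumour-associated and normal skin, and Il7r by 0.05 (-0.35 to 0.45) at means of 4.42 and 4.48. Neither was called.

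Of 20 measured genes known to respond to IL-4 and IL-13 (11 of them below 6.73), 1 rose and 1 fell in tumour-associated against normal skin, and 1 rose against inflamed skin. Limma called 0 between inflamed and normal skin, where 4 had an unadjusted p under 0.05 (15.6% of all genes). Called shares over all genes were 9.65%, 6.71% and 0.533% in these comparisons. The medians of the list were 0.12, 0.31 and -0.17 in that order. Postn, the gene of the matricellular protein periostin, had log2 values of 11.51, 11.32, 11.61 and 9.20 on the normal arrays, 12.26, 12.62, 12.58 and 12.43 on the inflamed arrays and 13.85, 13.68, 13.62 and 13.75 on the tumour-associated arrays. The 3 groups did not overlap. Postn rose 7.03-fold, by 2.81 ± 0.42 (SE), in tumour-associated against normal skin (adjusted p = 0.00143), and was called in all 23 alternatives. Inflamed skin stood at 1.56 against normal skin (0.64 to 2.48, adjusted p = 0.12).

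Among the chemokine genes of this list, 1 was called against normal skin (Ccl11) and another against inflamed skin (Ccl7). Ccl11, the gene of eotaxin, a chemoattractant for eosinophils, had log2 values of 10.39, 10.56, 10.76 and 10.72 on the normal arrays, 8.27 to 10.23 on the inflamed arrays and 8.06, 9.13, 9.74 and 6.47 on the tumour-associated arrays. It fell by 2.26 ± 0.61 (SE) against normal skin (adjusted p = 0.0374, range over the alternatives 0.0161 to 0.245). The call was lost without any 1 normal array (-2.33 to -2.21), without inflamed array 1, 2 or 4, and without tumour-associated array 1 (-2.16) or 4 (-1.63). It was also lost with 2 groups only (adjusted p = 0.063) and with the Gapdh covariate, which gave -1.0. Against inflamed skin Ccl11 stood at -1.31 (adjusted p = 0.197). Ccl7, a monocyte chemoattractant gene, rose by 1.82 ± 0.41 against inflamed skin (adjusted p = 0.0219), a call that ended when inflamed array 1 (1.84) or tumour-associated array 1 (1.75) was left out, and with the spike covariate (1.78, adjusted p = 0.258, range over the alternatives 0.0025 to 0.258). Against normal skin it stood at 1.31 and was not called (adjusted p = 0.0687).

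For each of the 4 called genes, the genes with the most similar pattern were sought among 10910 genes above 6.73, by the root mean square difference of the mean-centred log2 values over the 12 arrays. The nearest to Il13ra2 were Tnfrsf22 (0.316) and Hp (0.329), and to Il4ra Ctsb (0.188) and Ust (0.191). The nearest to Il6st were Srgap3 (0.190) and Cpsf1 (0.248), and to Lif Scg3 (0.151) and Bcl9l (0.181). Of these nearest genes, Tnfrsf22, Hp, Ctsb and Srgap3 were called between tumour-associated and normal skin. Ust, Cpsf1, Scg3 and Bcl9l were not, so neither gene nearest to Lif was called. The spread over the 12 arrays (SD) was 0.77 for Il13ra2, 0.49 for Il4ra, 0.85 for Il6st and 0.39 for Lif.

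Of the 10 fibroblast markers, 1 was called higher in tumour-associated than in normal skin (adjusted p = 0.0349). It was Pdgfra (0.93), the gene named in the reporter allele. Another, Pdgfrb, was called higher in tumour-associated than in inflamed skin (0.55, adjusted p = 0.0211). Markers of other cell types differed between the groups too. The mean over 17 keratinocyte markers lay between 6.32 and 6.51 in normal, between 7.07 and 8.18 in inflamed and between 6.52 and 7.88 in tumour-associated arrays. Of these, 3 of 17 were called higher in tumour-associated than in normal skin (4.85% of all genes): Krt14 (by 2.38), Krt6a (by 2.31) and Dsp (by 3.11). The median of the list was 0.28 there, while Epcam (-0.55), Trp63 (-0.49) and Krt15 (-0.27), among others, lay below 0. Other Krt14 probe sets gave 0.16 and 1.66, not called. Krt5 stood at 0.48, not called. In inflamed against normal skin Perp (3.50) and Krt15 (1.89) were called higher, and Krt5 stood at 1.48 (adjusted p = 0.0926). The mean over 6 neutrophil markers lay between 5.54 and 5.78, between 5.46 and 5.75 and between 6.0 and 6.23, and S100a9 and Mpo were higher in tumour-associated than in normal skin, by 1.11 and 0.94. All 6 had means below 6.73. The mean over 13 macrophage and myeloid markers lay between 6.43 and 6.82, between 6.05 and 6.66 and between 6.40 and 6.57, with a median difference of 0.02 between tumour-associated and normal skin. Of the 13, 1 was called there, lower, Csf1r, the macrophage growth factor receptor gene (-2.14). In the same comparison 1 of 9 endothelial markers was lower (Plvap, -2.30), 1 of 11 T cell and innate lymphoid markers was lower (Rora, -1.36), and of 10 pericyte and smooth muscle markers Acta2 (4.32) and Cnn1 (1.98) were higher and Kcnj8 (-4.01) and Abcc9 (-2.12) lower. Between tumour-associated and normal skin 9.65% of all genes were called. The part of such cells in the values of the 9 genes was not tested.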

How the data were processed

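RNA of GFP-positive sorted mouse dermal fibroblasts, amplified once per the labels' protocols, was measured on 12 arrays, 4 in each of 3 groups named by the labels. The deposited values are log2 intensities of 45101 probe sets, between 2.08 and 14.96. The background correction, summary method and normalization the authors used were not given in the sources used here. Limma is named in the submitters' processing notes, without a version. Array quartiles of the deposited log2 values spanned 0.284 and 0.276, so arrays were quantile-normalized.

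Of the probe sets, 34945 had 1 symbol in the platform annotation, 932 several and 9160 none, and 64 were controls. Each gene took its probe set with the highest mean, which gave 18193 genes. Group means over all 12 arrays were fitted with limma 3.58.1 in R 4.3.3 with eBayes, and p-values were adjusted by Benjamini-Hochberg over all genes (over all probe sets where single probe sets are given), with a threshold of 0.05. Correlations between arrays of a group were 0.890 to 0.987. The fit was tested on simulated data.

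The 9 genes, the pathway lists and the marker lists were chosen with earlier results of these data known. From each pathway list the called genes are named, at most 10 by size of the difference, with a few fixed receptor and signalling genes. From the marker lists the defining genes Ptprc, Cd3e, Krt5, Krt14, Pecam1 and Kit and some called genes are named. The alternatives were another normalization, filter, choice of probe set, fit, covariate or set of arrays. Il11ra1 and Il2rg were not analysed here. Promoter windows are from RefSeq, build GRCm38.p6.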

Additional observations from a re-analysis of the deposited data

Results flagged for a closer look

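In 12 of 135 groups of 4 arrays, 1 array lay apart from the other 3 by more than the 95% critical value of Dixon's test. Chance alone gives about 1 in 20 such groups. Among the 9 genes these were 2 probe sets of Il13ra1, on which tumour-associated array 4 stood at 4.61 and 4.76, while the nearest other arrays of the group stood at 8.38 and 7.70. The same array stood apart for Lifr, at 5.51 (nearest 8.38), and for Il31ra, at 7.09 (nearest 6.55). Normal array 4 stood apart for Postn, at 9.20 (nearest 11.3), for Hp, at 6.95 (nearest 6.51), and for Stat3, at 9.73 (nearest 10.3). For Stat3, inflamed array 3 also stood apart at 10.49 (nearest 10.75), and so did tumour-associated array 1 at 9.95 (nearest 10.6). The others were Pim3 in normal array 1, at 11.3 (nearest 10.8), Timp1 in inflamed array 2, at 9.68 (nearest 8.98), and Ccl11 in inflamed array 3, at 8.27.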

How the results depend on the processing

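Over 23 alternatives, 21 planned and 2 added after seeing the data (the Gapdh covariate and leaving out both normal array 4 and tumour-associated array 4), no called difference of a named gene changed sign, and 6 of 29 were called in every alternative. Single arrays decided many calls near the threshold, and signal near the low end limits Il6, Il11 and Tslp. Lif was close to the limit of 6.73 too, with means of 6.71 in inflamed and 6.42 in tumour-associated arrays. Shifting arrays by 49 ribosomal protein genes moved the median of all genes by -0.19 (inflamed minus normal), 0.20 (tumour-associated minus normal) and 0.39 (tumour-associated minus inflamed), and the share of called genes that were higher from 48.5%, 50.3% and 54.7% to 27.2%, 68.9% and 90.1%. The spike covariate moved the last share to 70.4%, with 284 instead of 1221 calls, and called 0 instead of 97 genes between inflamed and normal skin (2216 at an unadjusted p under 0.05). The Gapdh covariate gave 970 instead of 1756 calls against normal skin, and 152 instead of 97 between inflamed and normal skin.

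Between inflamed and normal skin, the mean over probe sets called 1 of the 9 genes instead of 0, and 228 instead of 97 of all genes. Without both arrays numbered 4 the IL-6 family, JAK-STAT3 and type 2 response lists had 1 call each instead of 0, and without 1 array 0 to 1, 0 to 2 and 0 to 1. Over all genes there were 219 calls without both arrays numbered 4 and 0 to 249 without 1 array. Between tumour-associated and normal skin, the 4 calls among the 9 genes became 2 with 2 groups only or the Gapdh covariate, and 1 to 4 without 1 array. Over all genes the 1756 calls became 1094 with 2 groups only, 970 with the Gapdh covariate and 1622 with the ribosomal shift. They were 1712 with the deposited values, 1551 with the block, 2099 with the spike covariate and 2040 with the mean over probe sets. Without both arrays numbered 4 they were 1937, and without 1 array 1259 to 1792. The IL-6 family list fell from 2 to 1 with the ribosomal shift or 2 groups only (1 to 3 without 1 array). The JAK-STAT3 list fell from 10 to 6 with 2 groups only and 5 with the Gapdh covariate (5 to 10). The type 2 ligand and receptor list rose from 0 to 1 with the deposited values, dim genes left out, the block, 2 groups only, the spike or Gapdh covariate or without both arrays numbered 4, and to 2 with the mean over probe sets (0 to 2). The type 2 response list went from 2 to 4 with the ribosomal shift and to 1 with the block or without both arrays numbered 4 (1 to 3). Between tumour-associated and inflamed skin, the 2 calls among the 9 genes became 0 with the spike covariate (1 to 3 without 1 array). Over all genes the 1221 calls became 284 with the spike covariate, 3025 with the ribosomal shift and 1721 with the mean over probe sets. They were 965 with 2 groups only and 778 with the Gapdh covariate. Without both arrays numbered 4 they were 1770, and without 1 array 578 to 1581. The IL-6 family list went from 1 to 2 with the ribosomal shift and to 0 with 2 groups only, either covariate or without both arrays numbered 4 (0 to 1). The JAK-STAT3 list went from 6 to 10 with the mean over probe sets and 2 with the spike covariate (5 to 9). The type 2 ligand and receptor list went from 1 to 0 with the spike and 2 with the Gapdh covariate (1 to 2). The type 2 response list went from 1 to 7 with the ribosomal shift and to 2 with 2 groups only, the mean over probe sets, the Gapdh covariate or without both arrays numbered 4 (0 to 2). The cause of these shifts was not tested.

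Differences that changed sign had not been called. Between inflamed and normal skin these were Il6 with the spike covariate (-2.30), and Il6st (0.018) and Osmr (0.10) with the mean over probe sets. Between tumour-associated and normal skin, the Gapdh covariate gave Il6 0.65, Il11 0.058, Il13ra1 -0.12 and Tslp 0.0075, and the ribosomal shift gave Il11 0.12 and Tslp 0.17. Without both arrays numbered 4, Il11 was 0.054 and Tslp 0.069, and the deposited values gave Tslp 0.007. Leaving out 1 array gave -0.213 to 0.023 for Il11, -0.145 to 0.227 for Il13ra1 and -0.133 to 0.055 for Tslp. Between tumour-associated and inflamed skin, the spike covariate gave Il6 2.06 and Il11 -0.075, the ribosomal shift gave Lif 0.10, and leaving out 1 array gave -0.027 to 0.162 for Tslp.

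Correlations by replicate number were low: deviations of same-numbered arrays correlated at -0.094 to 0.177, and 2 of 12 pairs were over 0.1. The highest value was that of normal array 4 with tumour-associated array 4, and 6 of 12 arrays correlated best with their own number. Spike levels of arrays 1 to 4 had the same order in these 2 groups. They were 10.36, 10.21, 9.25 and 12.27 in normal and 10.99, 10.56, 9.80 and 12.53 in tumour-associated skin. Whether same-numbered arrays were handled together was not tested. With the number as a replicate block, calls among the 9 genes stayed at 0, 4 and 2, and over all genes there were 57, 1551 and 1039 instead of 97, 1756 and 1221 calls. Under the block Junb, Tnfaip6 and Ccl11 against normal and Socs3 against inflamed skin were not called.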
